A study of Mus musculus with 6 samples.

Results

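Dusp1, Dusp2, Dusp3, Dusp4, Dusp5, Dusp6, Dusp16, Spry2, Spred1 and Zfp36 are 10 genes that switch off or restrain mitogen-activated protein kinase (MAPK) signalling or the messages it produces, and they were followed in macrophages of young and aged mouse wounds. They were taken by symbol from the deposited gene table. All 10 were among its 15168 genes, and all 10 passed the filter on low counts, as 11878 genes did. The wounds were full-thickness excisions on the back of wild-type female C57BL/6J mice, 12 weeks old in the young group and 24 months old in the aged group, and both groups were wounded under isoflurane and given buprenorphine. Tissue was digested with liberase 3 days after wounding, and live cells carrying CD45, CD11b, F4/80 and CD64 were sorted for bulk RNA sequencing, with 3 samples per age that the labels place in sets A, B and C. Ly6G was not used in the gate, and markers of neutrophils were therefore examined too. The labels do not say whether a sample came from 1 mouse or from pooled mice, so the p-values measure the spread between these samples, which may be partly technical.

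MAPKs are kinases that are switched on when both a threonine and a tyrosine of their activation loop are phosphorylated. The branches ERK, p38 and JNK carry growth factor, cytokine and microbial signals to the nucleus, and in macrophages they drive the transcription of cytokine and chemokine genes and lengthen the life of their mRNAs. Dual specificity phosphatases remove both phosphates and so switch the kinases off. Many of them are themselves induced by the pathway that they restrain. Sprouty and Spred proteins act upstream, between the receptor and Raf, and the zinc finger protein tristetraprolin, made from Zfp36, acts downstream by binding AU-rich mRNAs and promoting their decay.

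The counts came to 15270103 to 17927483 per sample, so that 1 count was worth 0.0553 to 0.0701 CPM (counts scaled to a common library size with the TMM factors of edgeR). The 10 genes together took 0.428 to 0.655% of the counts. The 10 macrophage markers examined were all measured, and their summed level was 36878 to 52297 CPM in the young and 35966 to 44481 CPM in the aged samples, with Cd14 (log2 fold change 1.10) and Adgre1 (-0.69) at the ends of those called. With 1 sample left out, the call of Cd14 held in 4 of 6 fits and that of Adgre1 in 2 of 6. Both were lost without young sample C or aged sample C. Some samples stood apart. Keratinocyte markers summed to 163 CPM in aged sample B and to between 0.719 and 2.10 CPM in the other 5, with Krt14 as the gene called higher, and fibroblast markers to 119 CPM there and to between 12.4 and 41.0 CPM elsewhere. Krt14 had 0, 3 and 1 counts in the young and 11, 1259 and 14 in aged samples. It passed the filter on low counts only through the aged samples, where it was high. Its call was not made by limma-voom (adjusted p = 0.126). In edgeR it was lost without young sample B (adjusted p = 0.0925) or young sample C (0.111). Stress and heat shock genes that respond to tissue digestion summed to 17935 CPM in young sample A and 16530 CPM in aged sample A, against 56335 to 80556 CPM in the other 4 samples, and Socs3 (1.73) was the only one of them called. Of the neutrophil markers, 4 of 12 tested were higher and 0 lower in aged samples, against 9.73% and 7.97% of all genes. These markers summed to 717 to 1217 CPM in the young and 926 to 1583 CPM in the aged samples. Their log2 fold changes ran from -0.54 to 1.62 (Cd177), with Retnlg (0.85) the lowest of those called. Retnlg was called in 1 of 6 fits with a sample left out, and lost its call with the set letter as a block (adjusted p = 0.056 in edgeR). Of markers picked once their values were known, Ly6g was at 0.05 and Elane had 0 counts in 4 of the 6 samples and 6 and 5 in aged samples A and C. Endothelial markers summed to 9.91 to 11.2 CPM in the young and 25.0 to 30.5 CPM in the aged samples, and Pecam1, the gene of CD31, made up that rise (8.03 to 25.9 CPM on average), while Kdr was at 1.95 and 1.46 CPM, Cdh5 at 0.429 and 0.127 CPM, and Tek at 0 in 4 of 6 samples. The antibodies that the study lists for flow analyses and sorting included CD31 and TIE2, the protein of Tek. T and NK cell markers summed to 4.49 to 6.16 CPM in the young and 3.15 to 4.06 CPM in the aged samples, with Cd4 called lower. Cd4 had 5 to 48 counts per sample, and its call held in 1 of 6 fits with a sample left out. It was also lost with both samples of set A left out (adjusted p = 0.0964 in edgeR). Mast cell markers were between 18.7 and 68.1 CPM in the young samples and aged sample A and at 1.02 and 0.741 CPM in aged samples B and C. What part these cells and states had in the values below was not tested, except by leaving samples out.

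The sequence upstream of the genes that rose with age, and of Dusp1, is shown first because several MAPK phosphatase genes are known to be induced by transcription factors that MAPKs activate. The sequences are those of RefSeq on GRCm38.p6, which 9 of the 10 genes matched (all but Dusp4), and 250 bases before each RefSeq start were searched on both strands. Each is written on the strand of its gene, without bases that lie in an exon of any GENCODE M21 model. Capitals mark a CArG box, the site of serum response factor (Dusp5), or a cyclic AMP response element TGACGTCA and an E-box CACGTG (Dusp1). The windows lie at chr19:53528895-53529108 on the plus strand (Dusp5), chr10:99262981-99263230 on the plus strand (Dusp6), chr6:134792629-134792878 on the minus strand (Dusp16), chr2:117120821-117121070 on the plus strand (Spred1) and chr17:26508520-26508722 on the minus strand (Dusp1).
Dusp5: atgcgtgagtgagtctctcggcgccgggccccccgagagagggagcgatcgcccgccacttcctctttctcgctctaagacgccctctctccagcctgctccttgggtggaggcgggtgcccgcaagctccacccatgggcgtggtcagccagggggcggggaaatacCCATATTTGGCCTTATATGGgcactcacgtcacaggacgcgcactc
Dusp6: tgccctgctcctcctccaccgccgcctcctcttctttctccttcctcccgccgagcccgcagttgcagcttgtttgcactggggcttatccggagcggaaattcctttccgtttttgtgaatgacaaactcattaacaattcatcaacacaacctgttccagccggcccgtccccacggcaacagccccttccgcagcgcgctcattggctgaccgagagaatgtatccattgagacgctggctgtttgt
Dusp16: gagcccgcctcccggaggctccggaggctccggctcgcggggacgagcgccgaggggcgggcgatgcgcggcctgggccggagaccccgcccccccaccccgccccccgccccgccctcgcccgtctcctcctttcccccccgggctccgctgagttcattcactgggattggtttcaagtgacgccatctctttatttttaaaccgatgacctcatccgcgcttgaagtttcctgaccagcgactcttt
Spred1: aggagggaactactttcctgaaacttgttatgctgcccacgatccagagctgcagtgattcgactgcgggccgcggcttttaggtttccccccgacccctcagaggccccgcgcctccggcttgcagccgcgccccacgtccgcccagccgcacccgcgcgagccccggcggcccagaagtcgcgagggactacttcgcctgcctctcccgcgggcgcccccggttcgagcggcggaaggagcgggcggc
Dusp1: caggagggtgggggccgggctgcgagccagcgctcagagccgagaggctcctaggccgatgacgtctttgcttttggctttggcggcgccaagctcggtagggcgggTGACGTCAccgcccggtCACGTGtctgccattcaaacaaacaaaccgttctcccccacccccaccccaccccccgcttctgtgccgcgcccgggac

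The Dusp5 window held a pair of CArG boxes end to end, CCATATTTGG 82 to 73 bases and CCTTATATGG 72 to 63 bases before the RefSeq start. A CArG box was found in 1.47% of the 32851 RefSeq promoters of the same length. Zfp36 was the other gene of the 10 with one, CCATAAAAGG at chr7:28379277-28379286 on the minus strand, 58 to 49 bases before its start. Its window lay entirely within an exon of a longer GENCODE model and is not printed. In the Dusp1 window the cyclic AMP response element lay 143 to 136 bases and the E-box 126 to 121 bases before the start, and 1.55% and 6.02% of promoters held these letters. Dusp2 held an E-box as well, and a site of the EGR factors, GCGGGGGCG, which Zfp36 also held and which 2.57% of promoters held. In the windows of Dusp3, Dusp6, Dusp16, Spry2 and Spred1 none of the 8 motifs searched was found. The other 4 motifs, of AP-1 (TGANTCA, in 6.75% of promoters), ETS factors (CCGGAAGT, 2.88%), NF-kB (7.25%) and a TATA box (TATAAA, 12.4%), were in none of the 9 windows. In these windows no motif searched was shared by the 4 genes that rose.

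The most abundant of the 10 mRNAs also carry a nonamer that tristetraprolin binds. The nonamer TTATTTATT, in capitals here with 10 bases on each side, occurred in the 3′ untranslated region of Dusp1 at chr17:26506169-26506177 and chr17:26505880-26505888 and in that of Zfp36 at chr7:28376961-28376969, all on the minus strand of GRCm38.
Dusp1 first site: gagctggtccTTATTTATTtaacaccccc
Dusp1 second site: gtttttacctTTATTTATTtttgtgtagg
Zfp36 site: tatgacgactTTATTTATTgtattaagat

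The other 8 genes had no such nonamer in the 3′ untranslated region of their principal GENCODE M21 transcript. Over 20735 genes 7.12% had one, and among genes with 3′ ends of similar length (within 20%) the share was 4.30% for Dusp1 and 4.17% for Zfp36. The shorter ATTTA within the nonamer occurred in all 10 genes, from 1 time in Dusp5 and Dusp6 to 12 times in Spred1. Genes with 3′ ends of similar length to these had means of 2.16, 2.32 and 8.02.

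Levels per length spanned about 3 orders of magnitude, with tristetraprolin and the nuclear phosphatase Dusp1 at the top. In young macrophages the mean was 941 CPM per kilobase of the principal transcript for Zfp36 and 909 for Dusp1, and in aged macrophages it was 1254 and 1069 CPM per kilobase. At these lengths the ranges of Zfp36 and Dusp1 overlapped within each age. The length used for Zfp36, 2790 bases, is that of a model that begins before the RefSeq start. A shorter model would place Zfp36 higher per kilobase, so the order of these genes was not settled. Dusp5 came next, at 108 CPM per kilobase in the young and 184 in aged samples, below Dusp1 and above Dusp2 and Dusp6 with no overlap. Dusp2, Dusp6 and Dusp3 formed a middle group at 27.8, 21.2 and 16.5 CPM per kilobase in young samples, in which neighbours overlapped. In aged samples the order of the first of these changed, with Dusp6 at 37.6, Dusp2 at 24.3 and Dusp3 at 23.1 CPM per kilobase, and the ranges of neighbours overlapped again. Dusp4 (8.64 in the young and 10.4 in aged) and Spred1 (5.54 and 9.22) also overlapped in each age. Dusp16 and Spry2 were the lowest, at 0.945 and 0.922 CPM per kilobase in young samples, where they overlapped, and at 1.78 and 1.03 in aged samples, where they did not.

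**Figure D1:**
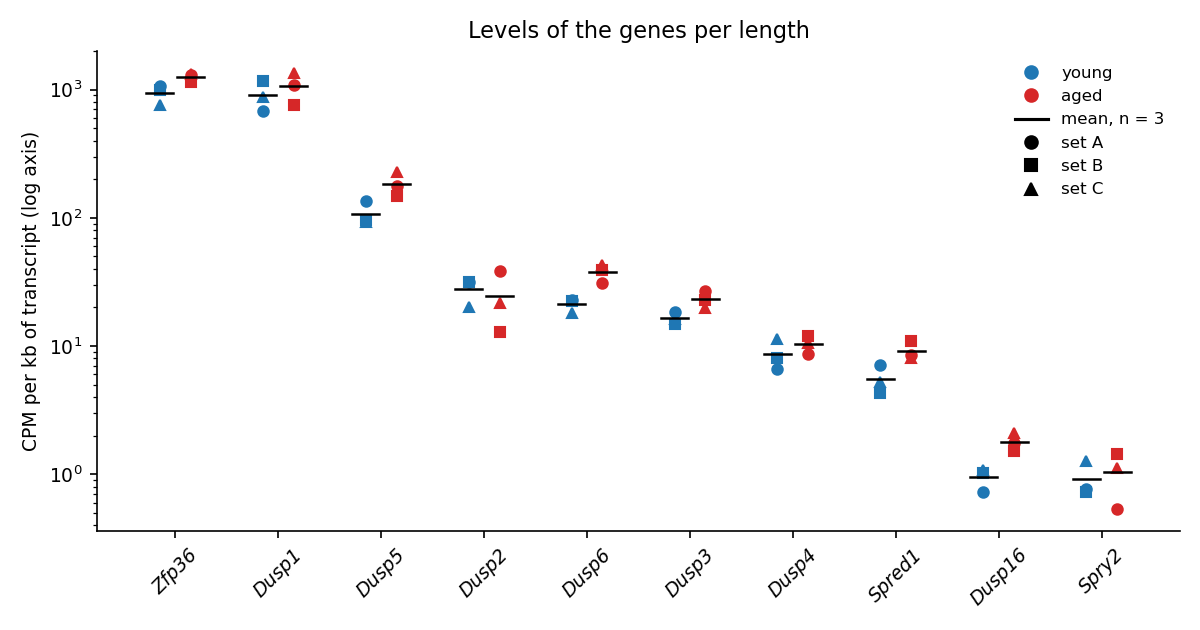
Level of each gene in every sample as CPM per kilobase of its principal transcript, on a log axis, with young samples in blue, aged samples in red and black lines at the mean of 3 samples. Zfp36 and Dusp1 lie near 1000, Dusp5 between 92.2 and 226, and Dusp16 and Spry2 near 1.

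Aged wound macrophages held more mRNA of 3 phosphatases, Dusp5, Dusp6 and Dusp16, and of the Ras pathway inhibitor Spred1, with fitted changes between 1.66 and 1.88-fold. These 4 of 10 genes passed the test in the edgeR fit over all genes at an adjusted p-value under 0.05, and 0 of 10 were lower. Of all genes tested 17.7% were called in either direction, 9.73% higher and 7.97% lower in aged samples. The aged samples lay wholly above the young ones for 6 of 10 genes and wholly below them for 0 of 10, where 38.2% of all genes had groups without overlap and 19.2% had them with the aged samples higher. The median log2 fold change was 0.45 over the 10 genes and -0.02 over all genes. Together with a change of over 2-fold, the rule the study used for its own list, 0 of 10 genes passed, where 8.79% of all genes did in either direction and 4.59% upwards. At an unadjusted p under 0.05 the edgeR test had 5 of 10 genes higher and 0 lower, against 34.5% of all genes in either direction and 18.1% higher. In bulk RNA, more transcript in every macrophage cannot be told apart from a larger share of the cells that express the gene.

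**Figure D2:**
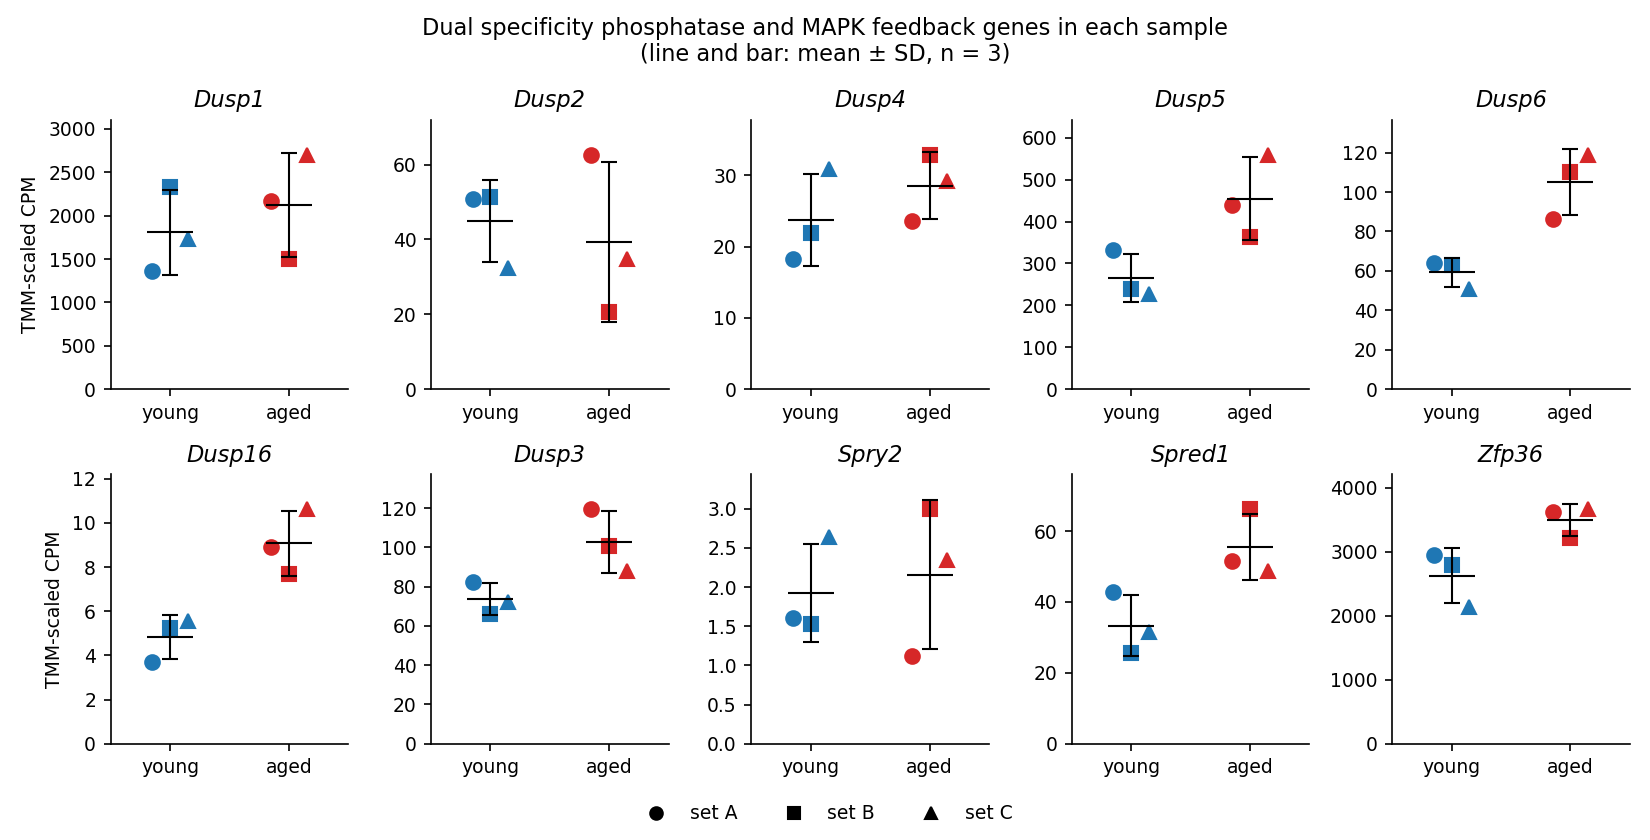
TMM-scaled CPM of each gene in 3 young (blue) and 3 aged (red) samples, with marker shapes for sets A, B and C, a line at the mean and bars of 1 SD. Aged samples lie above all young samples for Dusp5, Dusp6, Dusp16, Dusp3, Spred1 and Zfp36 and overlap them for Dusp1, Dusp2, Dusp4 and Spry2.

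Dusp6 encodes MKP-3, a phosphatase of the cytoplasm that acts on ERK and is a standard readout of ERK activity in other cells. It lies at chr10:99263231-99267490. Its level was 64.1, 63.2 and 50.9 CPM in young samples A, B and C and 86.4, 110.0 and 119 CPM in the aged samples A, B and C. The aged samples all stood clear of the young ones, and aged sample A was the nearest to them. The mean rose from 59.4 ± 7.40 to 105 ± 16.8 CPM (SD, n = 3 each), a log2 fold change of 0.82 ± 0.18 (SE, standard error of the fit) with an adjusted p = 0.0162 in the edgeR test. This was the smallest adjusted p-value of the 10 genes. The call was lost without young sample C (adjusted p = 0.0903 in edgeR) and without aged sample C (adjusted p = 0.0694).

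Dusp5, at chr19:53529109-53542432, encodes a nuclear phosphatase that acts on ERK. It was measured at 332, 239 and 228 CPM in the young and at 440.1, 364 and 559 CPM in the aged samples. Young sample A, the highest of its group, lay below aged sample B, the lowest of the other. The mean was 266 ± 57.4 CPM in the young and 454 ± 98.4 CPM in the aged samples (SD, n = 3 each), with a log2 fold change of 0.77 ± 0.22 (SE, edgeR adjusted p = 0.0358). Of the 6 fits that each left out 1 sample, 2 kept the call, those without young sample A and without aged sample B. The adjusted p-value in edgeR was 0.120 without young sample B, 0.151 without young sample C, 0.0602 without aged sample A and 0.143 without aged sample C. A gene on the other strand, Gm50394, overlaps Dusp5, but it was counted at only 2 to 8 reads per sample.

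Dusp16, at chr6:134715468-134792626, encodes MKP-7, which acts on JNK and p38 rather than on ERK. It was a low transcript, at 3.71, 5.22 and 5.55 CPM in the young and 8.90, 7.71 and 10.6 CPM in the aged samples, from 67 to 172 counts per sample. The groups did not overlap, and no aged sample came within 2 CPM of a young one. Its log2 fold change was the largest of the 10, 0.91 ± 0.26 (SE, edgeR adjusted p = 0.0358), from a mean of 4.83 ± 0.983 to 9.08 ± 1.47 CPM (SD, n = 3 each). The call held in 1 of the 6 fits with a sample left out, that without aged sample B (adjusted p = 0.0410 in edgeR), and the other 5 gave 0.0648 to 0.135. It was also lost when both samples of set A were left out (log2 fold change 0.77, adjusted p = 0.0783).

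Spred1, at chr2:117121374-117182280, encodes a membrane protein that brings neurofibromin to Ras and so lowers the input to ERK. Its level was 42.8, 25.7 and 31.6 CPM in young samples and 51.4, 66.2 and 48.8 CPM in the aged samples. Young sample A was the closest to the aged group, and aged sample B, the sample with keratinocyte transcripts, was the highest. The mean rose from 33.3 ± 8.67 to 55.5 ± 9.37 CPM (SD, n = 3 each), a log2 fold change of 0.73 ± 0.21 (SE, edgeR adjusted p = 0.0411). Without aged sample B the log2 fold change was 0.60 (adjusted p = 0.110 in edgeR). The call held in 1 of the 6 fits with a sample left out, that without young sample A (adjusted p = 0.00960), and the other 5 gave 0.0603 to 0.150. With the set letter as a block it was lost as well (adjusted p = 0.0518).

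Many fits with 1 sample fewer thus lost the calls of these 4 genes, while their direction did not turn in any fit that was run. The log2 fold changes stayed within 0.60 to 0.97 for Dusp5, 0.72 to 0.95 for Dusp6, 0.76 to 1.03 for Dusp16 and 0.58 to 0.96 for Spred1 when 1 sample was left out. With both samples of set A left out, the samples with little heat shock mRNA, Dusp5, Dusp6 and Spred1 had log2 fold changes of 0.99, 1.0 and 1.0, with adjusted p-values of 0.0105, 0.00386 and 0.00584 in edgeR, while Dusp16 was at 0.77 and lost its call (0.0783).

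**Figure D3:**
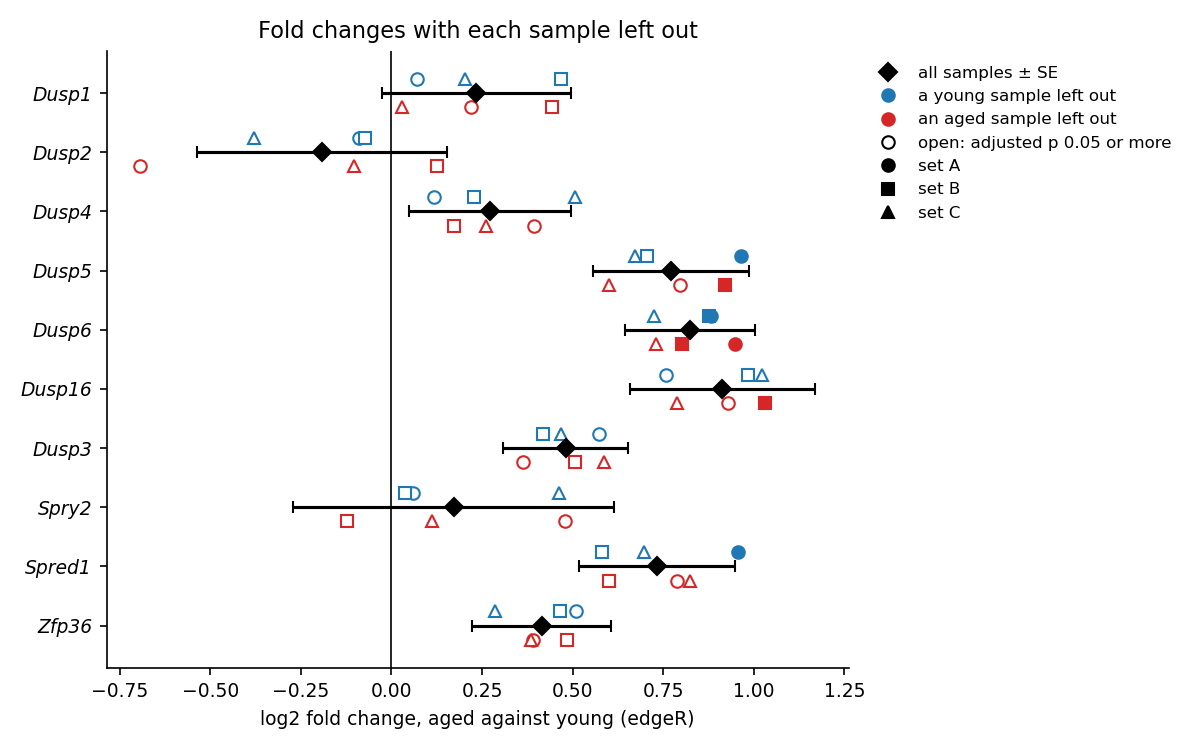
Log2 fold change of each gene in the edgeR fit of all 6 samples (black diamonds, bars of 1 standard error) and with 1 sample left out (blue for a young and red for an aged sample, shapes for sets A, B and C, filled where the adjusted p-value was under 0.05). Dusp6 stays called in 4 of 6 fits, Dusp5 in 2, Dusp16 and Spred1 in 1 each, and Dusp2 and Spry2 change sign without aged sample B.

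Dusp3 and Zfp36 were higher in every aged sample than in any young sample but did not pass the test. Dusp3 (chr11:101971143-101987014) encodes VHR, a small phosphatase that lacks the docking domain of the MAPK phosphatases. It was at 82.3, 66.2 and 72.2 CPM in the young and 119, 101 and 87.8 CPM in the aged samples, with a log2 fold change of 0.48 ± 0.17 (SE, edgeR adjusted p = 0.0771). Aged sample C and young sample A were close to each other. Zfp36 (chr7:28376784-28380254) was the 44th most abundant gene of those tested, at 2955, 2789 and 2133 CPM in the young and 3619, 3214 and 3663 CPM in the aged samples. Young sample C was low for its group, and the aged samples lay close together. The mean was 2626 ± 434 CPM in the young and 3499 ± 247 CPM in the aged samples (SD, n = 3 each), with a log2 fold change of 0.41 ± 0.19 (SE, edgeR adjusted p = 0.155). limma-voom with sample quality weights called Zfp36 (log2 fold change 0.56, adjusted p = 0.0234).

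Dusp1, Dusp2 and Dusp4, which like Dusp5 encode inducible nuclear phosphatases, had overlapping ages, unlike Dusp5. Dusp1 encodes MKP-1, which restrains p38 and JNK in activated macrophages. It was at 1364, 2330 and 1731 CPM in the young and 2174, 1504 and 2702 CPM in the aged samples, a log2 fold change of 0.23 ± 0.26 (SE, edgeR adjusted p = 0.559). The samples of 1 age differed as much as the ages did, with a coefficient of variation of 27.0% in the young and 28.2% in aged samples. The Dusp1 model of the annotation runs from 26505590 to 26562129 on chromosome 17, far beyond the RefSeq start at 26508472, and overlaps Ergic1 on the other strand. Ergic1 was measured at 56.1 CPM in the young and 50.4 CPM in the aged samples, and whether the counting used the strand is not stated.

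Dusp2 (chr2:127336159-127338377), which encodes PAC-1, a phosphatase of ERK and p38 in immune cells, was at 50.9, 51.5 and 32.4 CPM in the young and 62.6, 20.7 and 34.8 CPM in the aged samples. Aged samples A and B were the highest and the lowest of all 6. The log2 fold change was -0.19 ± 0.34 (SE, edgeR adjusted p = 0.725) and ranged from -0.69 without aged sample A to 0.13 without aged sample B. Dusp4 (chr8:34807297-34819895), which encodes the ERK and JNK phosphatase MKP-2, was at 18.3, 21.9 and 30.8 CPM in the young and 23.6, 32.9 and 29.2 CPM in the aged samples. The samples of set A were the lowest of their age for Dusp4. Its log2 fold change was 0.27 ± 0.22 (SE, edgeR adjusted p = 0.418).

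Spry2 (chr14:105891947-105896820), an inhibitor of receptor tyrosine kinase signalling, was a low transcript, with 29, 26 and 40 counts in the young and 16, 47 and 38 counts in aged samples. In CPM the levels were 1.60, 1.53 and 2.64 against 1.12, 2.99 and 2.35. Both the lowest and the highest value were from aged samples. The log2 fold change was 0.17 ± 0.44 (SE, edgeR adjusted p = 0.814).

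The 10 genes did not move as one block across the 6 samples. As a description, with both ages in 1 correlation and the scaling shared, the log2 CPM values of the 45 pairs of genes had a median Pearson correlation of 0.32, and 32 of the 45 were above 0. Dusp5 followed Zfp36 (r = 0.90) and Dusp6 (r = 0.87). Dusp2 ran against Spry2 (r = -0.96) and Dusp4 (r = -0.82). Among 6587 genes with a mean of at least 10 CPM, the genes most like Dusp6 over the 6 samples were Tec (r = 0.995), Mindy2 (0.994) and Tpp2 (0.994). Those most like Zfp36 were Prr14 (0.980), Klhdc3 (0.979) and Kdm5a (0.976).

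Of the other MAPK phosphatases, Dusp7, Dusp8, Dusp9 and Dusp10, 1 was higher and 0 lower, against 9.73% and 7.97% of all genes. The median log2 fold change of this list was 0.51. Dusp10, which encodes the JNK and p38 phosphatase MKP-5, was at 8.02, 4.63 and 4.03 CPM in the young and 15.6, 9.49 and 14.3 CPM in the aged samples, and its log2 fold change was 1.23 ± 0.31 (SE, edgeR adjusted p = 0.0250), beside 0.91 for Dusp16, which acts on the same kinases. The difference between these genes was not tested. The call of Dusp10 held without young sample A and without aged sample B, and the other 4 fits with a sample left out gave adjusted p-values of 0.0614 to 0.110 in edgeR. Dusp7, a cytoplasmic ERK phosphatase like Dusp6, had a log2 fold change of 0.44 (adjusted p = 0.139 in edgeR) and overlapping groups, and was called higher without young sample A (adjusted p = 0.0448) and without set A (0.0348). Dusp9, the other of that kind, was at -2.14 (adjusted p = 0.0844) from 79, 8 and 22 counts in the young and 6, 3 and 13 in aged samples. Without young sample A, the one with 79 counts, it was -0.99 (adjusted p = 0.388 in edgeR), and DESeq2 called Dusp9 on all samples (adjusted p = 0.0451).

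Of 13 atypical dual specificity phosphatases other than Dusp3, 9 were tested. Among these, 2 were higher and 1 lower, with a median of -0.09, against 9.73% higher and 7.97% lower of all genes. Dusp14 had a log2 fold change of 1.05, Dusp11, picked once its values were known, of 0.92, and Dusp12 of -1.36. Dusp14 lost its call in 4 of the 6 fits with a sample left out, all but those without young sample B and without aged sample B (adjusted p = 0.0586 to 0.135 in edgeR), and with set A left out (0.0868). With 1 sample left out, the number called in the list ran from 0 (without young sample C) to 3, and limma-voom called 5. Of the other Sprouty and Spred genes, Spred2 was at 0.00 and Spry1 at -1.13 ± 0.42 (SE, edgeR adjusted p = 0.0826), the latter lower in every aged sample than in any young sample, at 10 to 36 counts per sample. Neither of these passed the edgeR test, while limma-voom (adjusted p = 0.0421) and edgeR with at least 10 counts required in every sample (0.0380) called Spry1 lower. Spred3, at 3 to 11 counts per sample, did not pass the filter, and Spry3 and Spry4 were not analysed here. The paralogue of Zfp36 with a call was Zfp36l1, which rose from 79.4, 104 and 94.5 CPM in young to 157, 148 and 154 CPM in the aged samples (log2 fold change 0.73 ± 0.16, SE, edgeR adjusted p = 0.0166). Its call was lost without young sample C or aged sample C. Zfp36l2 was at 0.29 (adjusted p = 0.239 in edgeR).

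**Figure D4:**
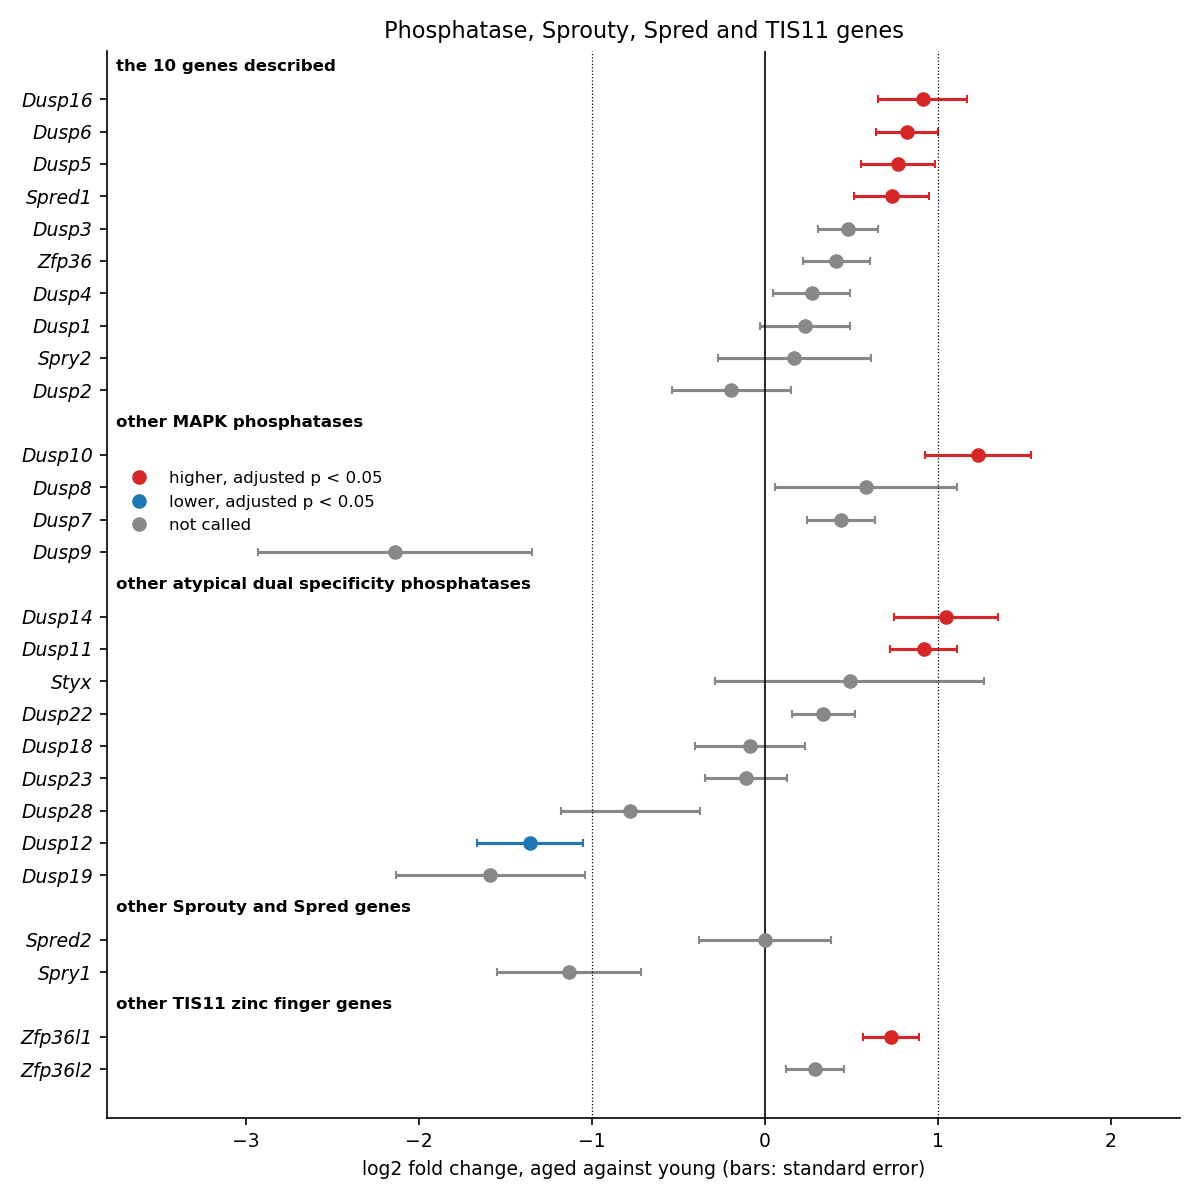
Log2 fold change, aged against young, with bars of 1 standard error, for the 10 genes and the tested members of their families, in red where higher and blue where lower at an adjusted p-value under 0.05 (dotted lines at a 2-fold change). The 4 called genes of the 10 lie between 0.73 and 0.91, and Dusp10, Dusp14, Dusp11 and Zfp36l1 are the other genes called higher.

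Several kinases that these phosphatases act on were not called. ERK1 (Mapk3) had a log2 fold change of 0.11, JNK1 (Mapk8) of 0.46, JNK2 (Mapk9) of 0.06 and p38 alpha (Mapk14) of -0.17, with adjusted p-values from 0.554 to 0.859 in edgeR. Over all genes 9.73% were higher and 7.97% lower. Of the ERK cascade from adaptors to kinases, 6 of 24 genes tested were higher and 0 lower, with a median of 0.24. Its called genes ran from Rps6ka2 (1.98), a ribosomal S6 kinase downstream of ERK, to Nras (0.53). Of the p38 and JNK cascade, 10 of 32 genes were higher and 1 lower, with a median of 0.51. There Mapkapk3, a kinase activated by p38, rose from 60.0, 31.5 and 46.9 to 129, 123 and 136 CPM, a log2 fold change of 1.49 ± 0.22 (SE, edgeR adjusted p = 0.00445), and Mknk1 (-0.67, adjusted p = 0.0489) was the gene that fell. Mapkapk2, a relative of Mapkapk3 that phosphorylates tristetraprolin and lowers its activity, was picked once its values were known. The log2 fold change of Mapkapk2 was 0.77 (adjusted p = 0.0151 in edgeR). With 1 sample left out, between 1 (without young sample B or C or aged sample C) and 6 genes of the ERK cascade were called, and between 2 (without young sample C) and 14 of the p38 and JNK cascade, while Rps6ka2 and Mapkapk3 were called in 6 of 6 such fits. Nras and Mknk1 were called only in that without young sample A, and both lost their call without the filter on low counts (adjusted p = 0.0620 and 0.0585 in edgeR) and with the set letter as a block (0.0513 and 0.0596), Mknk1 also with DESeq2 size factors (0.0519).

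Genes that the pathway switches on were mixed. Over all genes 9.73% were higher and 7.97% lower. Of the immediate early genes 5 of 20 were higher and 0 lower, with a median of 0.12, from Fosl1 (1.57) to Myc (0.78) among those called. Of the genes taken as output of ERK, 2 of 9 were higher and 0 lower, Fosl1 and Phlda1 (1.49), with a median of 0.82. Fosl1 and Phlda1, like Dusp5 and Dusp6, had all aged samples above all young ones. In both lists 0 genes were called without young sample B, without young sample C or without aged sample C. Without young sample A, 7 immediate early genes and 4 ERK output genes were called. DESeq2 called 9 and 3 of them, and limma-voom 10 and 4. Myc was called in 1 of 6 fits with a sample left out. It also lost its call without the filter on low counts (adjusted p = 0.0538 in edgeR) and with the set letter as a block (0.0502).

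In a chosen list of AU-rich mRNAs that tristetraprolin is known to bind, most genes were higher in aged samples. Whether Zfp36 had a part in this was not tested. Of 18 tested, 14 were higher and 0 lower in aged samples, with a median of 1.26, against 9.73% of all genes higher. The number called was 5 without young sample C, 8 without aged sample C and 11 to 14 in the other fits with a sample left out. The called ones ran from Csf2 (3.52), at 5, 2 and 3 counts in the young and 26, 56 and 27 in aged samples, to Ier3 (0.87). Csf2 passed the filter on low counts only through the aged samples, where it was high, and 13 genes of the list were called when every sample had to hold at least 10 counts. The nonamer shown above for Dusp1 and Zfp36 was found in the 3′ ends of 8 of these 18 genes, in a search of 1 transcript per gene. Among genes with 3′ ends of similar length the share ran from 0.758% (for Vegfa) to 14.6% (for Lif). The transcript searched for Vegfa had a 3′ end of only 27 bases, so its absence there says little. These lists were drawn up with earlier results of these data known, and their counts are descriptions.

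**Figure D5:**
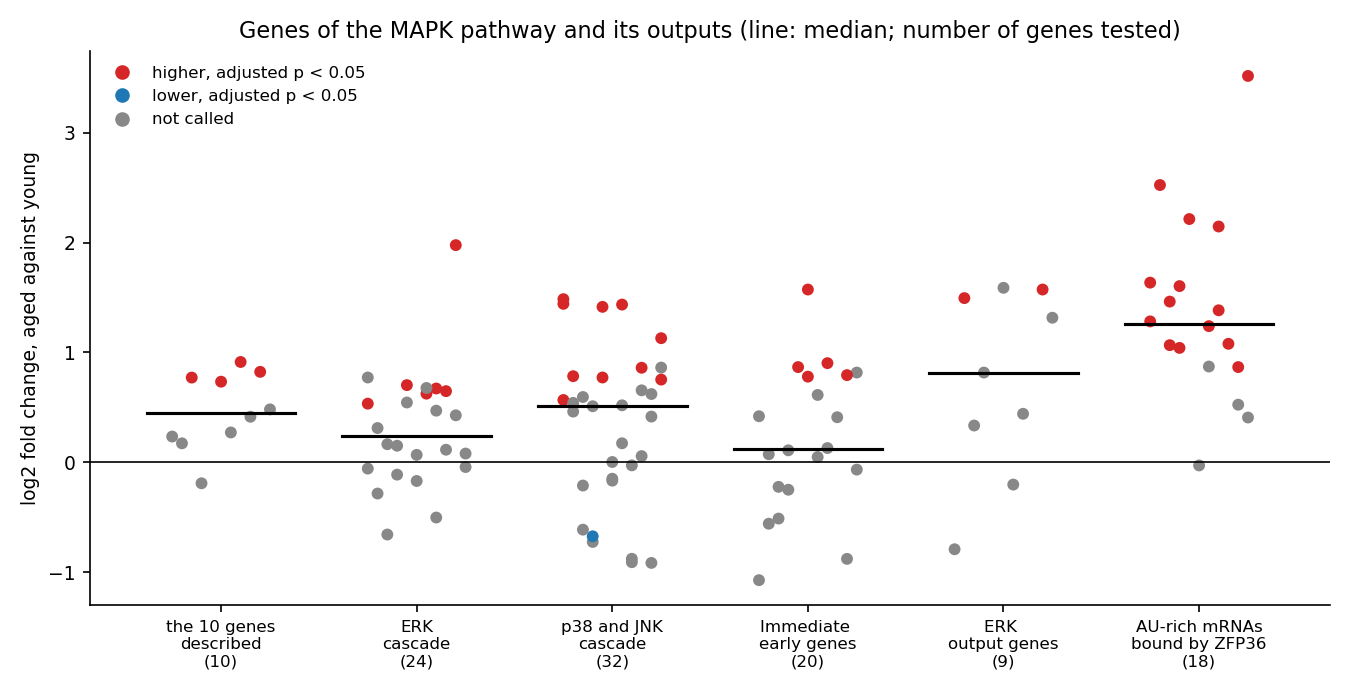
Log2 fold change, aged against young, of the 10 genes and of the tested genes of 5 lists, with a line at each median, red where called higher and blue where called lower. The medians lie at 0.45 for the 10 genes, 0.24 for the ERK cascade, 0.51 for the p38 and JNK cascade, 0.12 for immediate early genes, 0.82 for ERK output genes and 1.26 for AU-rich mRNAs.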

How the data were processed

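The authors aligned the reads to mm10 (STAR 2.7.3a and Partek in the submitters' processing notes) and deposited expected counts per gene, without normalisation, for genes with a total of at least 10. Other tables, with the authors' DESeq2 comparison and scaled counts, were not used. The expected counts were rounded to whole numbers, although the design had named raw counts, and analysed in R 4.3.3 with edgeR 4.0.16 (TMM scaling, filterByExpr, quasi-likelihood test between the ages, p-values adjusted by Benjamini-Hochberg over all 11878 genes), and adjusted values under 0.05 made a call. Log2 CPM used a prior count of 2. Totals were 15270103 to 17927483 counts, so that 1 count was 0.0553 to 0.0701 CPM. A whole group at or under 3 counts was to be read as being at the floor.

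The 10 genes and the lists were chosen with earlier results of these data known. All 10 genes are named. Of each list the called genes with the highest and the lowest fold change are named, together with any gene of a list of up to 6, the kinases (apart from a gene that is not reported here) and, for Zfp36 and Dusp6, the 3 genes most like each. Any other gene is marked as picked once its values were known. Motifs and 3′ ends were read from RefSeq (GRCm38.p6) and GENCODE M21 in Python 3.11.15 (pandas 2.3.3), and plots drawn in matplotlib 3.10.9. Alternatives were DESeq2 1.42.0, limma-voom 3.58.1 with sample quality weights, DESeq2 size factors in edgeR, other filters and thresholds, the set letter as a replicate block, leaving out each sample, and, added after the data were seen, leaving out both samples of set A. The pipeline was tested on simulated data. Each of the 6 samples entered as 1 replicate. Those of 1 age differed by more than counting noise, which does not show that they came from separate mice.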

Additional observations from a re-analysis of the deposited data

How the results depend on the processing

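Among the 10 genes, 4 were called by edgeR, 4 by DESeq2, 5 by limma-voom, 4 with DESeq2 size factors, 4 without a filter on low counts, 4 with at least 10 counts in every sample, and 3 with both set A samples left out. With each sample left out in turn the number called, all higher in aged samples, ran from 0 (without young sample C or without aged sample C) to 3 (without young sample A or without aged sample B). A test against a 2-fold change (glmTreat) and the 2-fold rule each left 0 of the 10. Over all genes, limma-voom called 3646 (1933 higher and 1713 lower) where edgeR called 2103 (1156 and 947), glmTreat 29 (26 and 3) and the 2-fold rule 1044 (545 and 499). DESeq2 called 2565 of 11912 genes (1474 higher), and DESeq2 size factors in edgeR gave 2106 of 11878 (1192 higher). Without the filter on low counts 1830 of 15168 genes were called (1022 higher). With at least 10 counts in every sample it was 2108 of 10626 (1133 higher). Leaving out 1 sample gave 218 to 2702 calls, with 151 to 1574 higher and 67 to 1128 lower, and the number called among the listed genes, 41 with all samples, ran from 8 to 46. Among these fits the lowest counts came without young sample C and the highest without young sample A. Leaving out both set A samples gave 2958 calls (1735 higher and 1223 lower). The cause was not tested, though every such fit has fewer samples. Over 13 alternatives the sign of the fold change held for 8 of the 10 genes, and Dusp2 (0.13) and Spry2 (-0.12) turned without aged sample B. The study's methods name no pairing of the samples, so the letters were not taken as pairs. The same-lettered samples of both ages had correlations of 0.18, -0.02 and 0.11 for sets A, B and C. That of set A was the largest of any young and aged samples, and both set A samples had little heat shock mRNA. Young sample C was slightly more like aged sample B (0.14) than aged sample C. With the set letter as a replicate block 2114 genes were called, 1202 higher and 912 lower, and 3 of the 10, with Spred1 at an adjusted p = 0.0518 in edgeR. Spry2 had 16 to 47 counts per sample, the fewest of the 10 genes.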
